A study of Zea mays with 6 samples.

Results

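Transcripts of 6 genes that control when maize flowers were followed in young ears: zcn8 (Zm00001d010752), Rap2.7 (Zm00001d010987), MADS69 (Zm00001d042315), dlf1 (Zm00001d022613), CCT10 (Zm00001d024909) and CCT9 (Zm00001d000176). They were chosen by name and identifier; their levels were not part of the rule, but earlier results of these data were known. Of the 6, counts of 5 were analysed among the 45578 genes of the table, and CCT9 was not analysed here. Of these 5 genes, 4 had at least 1 read and 3 passed the low-count filter and were tested among 22947 genes.

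The 6 RNA-seq libraries came from early developing ears between 0 and 0.5 cm long, 2 libraries for each of 3 genotypes. These were wild type, the CRISPR-edited mutant rhw1-1, labelled as an RHW1 knockout, and the line OE#1, labelled as RHW1 overexpression. The series title sets RHW1 in a pathway with ZCN4 that shapes the width of husk leaves. The sources used here do not give the inbred background or the promoter that drives RHW1 in OE#1. They also do not give the number of ears in a library or whether replicates came from separate plants. The p-values therefore rest on the spread between these libraries, which may be technical. For a single gene, the test draws that spread largely from all tested genes and less from the gene's own libraries. Each modified genotype was 1 line or allele.

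Flowering in maize starts when a leaf-made protein of the FLOWERING LOCUS T type, encoded by zcn8, travels to the shoot apex. There it acts with a bZIP protein encoded by dlf1, a gene whose mutants flower late. Upstream in the leaf, the AP2-type protein Rap2.7 delays flowering, the MADS-box protein MADS69 promotes it and lowers Rap2.7, and the CCT-domain proteins CCT9 and CCT10 hold back zcn8 under long days. ZCN4 and ZCN8 belong to the same protein family, of which some members promote flowering and others keep meristems indeterminate.

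Total counts were 21094445 to 23999698 per library. Levels are given in CPM (counts per 1000000 reads of the library, whose total was first scaled by a TMM factor of 0.991 to 1.01), as mean ± SD. CPM was not divided by transcript length, so it compares 1 gene between libraries and not 1 gene with another. Neither the tissue label nor the genotypes could be checked here by the level of marker genes or of RHW1, because no source used here pairs those names with the table's identifiers.

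dlf1, the bZIP partner of the florigen at the apex, was read deeply in every ear library and was the 1 tested member called higher in overexpression than in wild type. The wild-type libraries held 812 and 857 of its reads, the knockout libraries 1011 and 926, and the overexpression libraries 968 and 1122. As levels these were 35.1 and 37.8 CPM for wild type, 42.1 and 41.5 CPM for the knockout, and 46.4 and 47.2 CPM for overexpression. The 3 genotypes did not overlap: both wild-type libraries were lowest and both overexpression libraries highest. A pair of genotypes with 2 libraries each often separates. This held in 49.2% of all tested genes between knockout and wild type, 63.2% between overexpression and wild type and 61.1% between the modified lines. The share of genes in which all 3 genotypes separate was not computed. Replicates differed by a factor of 1.08 in wild type, 1.01 in the knockout and 1.02 in overexpression. In the same order, their CV (SD over mean) was 5.35%, 0.938% and 1.26%, against 3.46%, 3.21% and 3.09% from counting alone. In both modified lines the replicates thus lay closer together than counting alone gives, so their SDs understate the error.

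In overexpression, dlf1 stood at 46.8 ± 0.588 CPM against 36.5 ± 1.95 CPM in wild type (SD, n = 2 each). That is 1.28-fold higher, with a 95% interval of 1.17 to 1.41, a log2 fold change of 0.36 (SE 0.07) and an adjusted p of 6.78e-05 by edgeR's quasi-likelihood test. This was the 1 call among the 3 members tested against wild type in overexpression, in a comparison that called 29.2% of all tested genes, 15.3% as higher.

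The knockout level of dlf1 lay between the other 2 genotypes, at 41.8 ± 0.392 CPM (SD, n = 2). Against wild type it was 1.15-fold higher (95% interval 1.04 to 1.26), and the edgeR test across all genes did not pass, with an adjusted p of 0.0632. Overexpression was 1.12-fold above the knockout (95% interval 1.02 to 1.23), and this also did not pass, with an edgeR adjusted p of 0.0662. Both intervals lie above 1 before adjustment for the number of genes, and neither neighbouring step was called. Over the 13 alternatives the adjusted p of the knockout difference ran from 0.057 to 0.4, highest without wild type replicate 1 in edgeR.

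**Figure D1:**
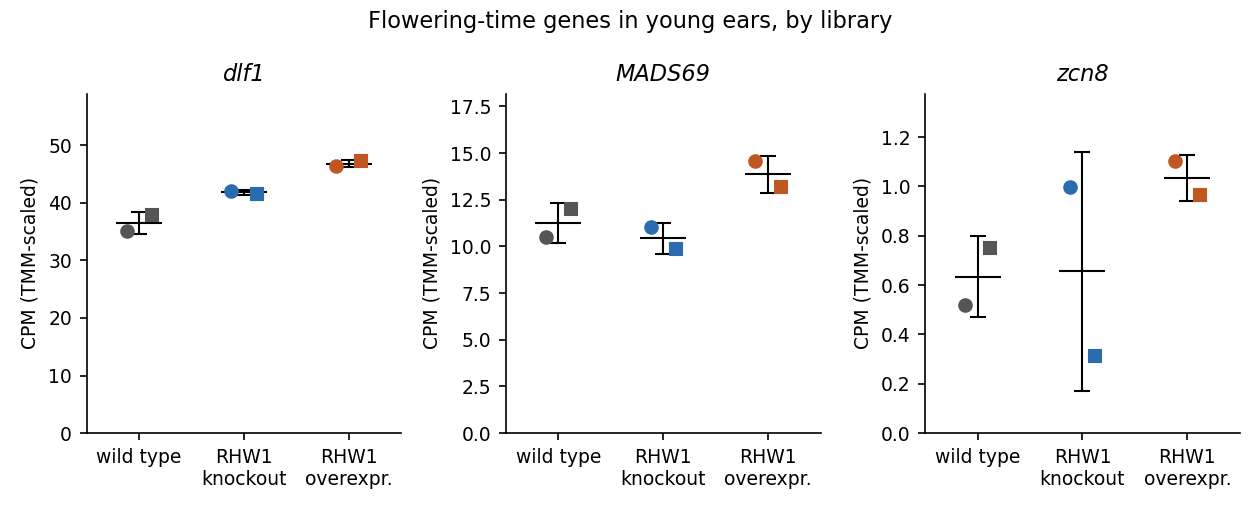
Level of dlf1, MADS69 and zcn8 in each library (y axis, CPM, from 0; each gene has its own scale) by genotype (x axis). Circles are replicate 1 and squares replicate 2, and the bar with whiskers is the mean ± SD (n = 2); dlf1 runs from 35.1 to 47.2 CPM with no overlap between genotypes, MADS69 is highest in both overexpression libraries, and the zcn8 knockout libraries lie far apart at 0.999 and 0.314 CPM.

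MADS69, the flowering promoter that acts above Rap2.7, was the second member with a called difference, between the 2 modified lines. The wild-type libraries held 243 and 272 of its reads, the knockout libraries 265 and 220, and the overexpression libraries 304 and 313. The levels were 10.5 and 12.01 CPM for wild type, 11.03 and 9.87 CPM for the knockout, and 14.6 and 13.2 CPM for overexpression. Both overexpression libraries were above the other 4, while wild type and knockout overlapped.

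MADS69 rose from 10.4 ± 0.823 CPM in the knockout to 13.9 ± 0.986 CPM in overexpression (SD, n = 2 each). The difference was 1.32-fold (95% interval 1.11 to 1.58), a log2 fold change of 0.40 (SE 0.13), with an edgeR adjusted p of 0.0149. It was the 1 call among the 3 members in that comparison, which called 26.7% of all tested genes, 14.1% as higher in overexpression. The call was lost without knockout replicate 2 (edgeR adjusted p = 0.126), without overexpression replicate 1 (edgeR adjusted p = 0.134) and in DESeq2 (adjusted p = 0.071); over the 13 alternatives the adjusted p ran from 0.0133 to 0.134.

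Against wild type, at 11.3 ± 1.07 CPM (SD, n = 2), the overexpression level of MADS69 was 1.23-fold (95% interval 1.03 to 1.47), which did not pass the edgeR test (adjusted p = 0.07). The knockout stood at 0.93-fold of wild type (95% interval 0.776 to 1.11; edgeR adjusted p = 0.712). A change of MADS69 in the knockout of more than about 1.11-fold up or below 0.776-fold lies outside that interval; smaller ones do not.

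**Figure D2:**
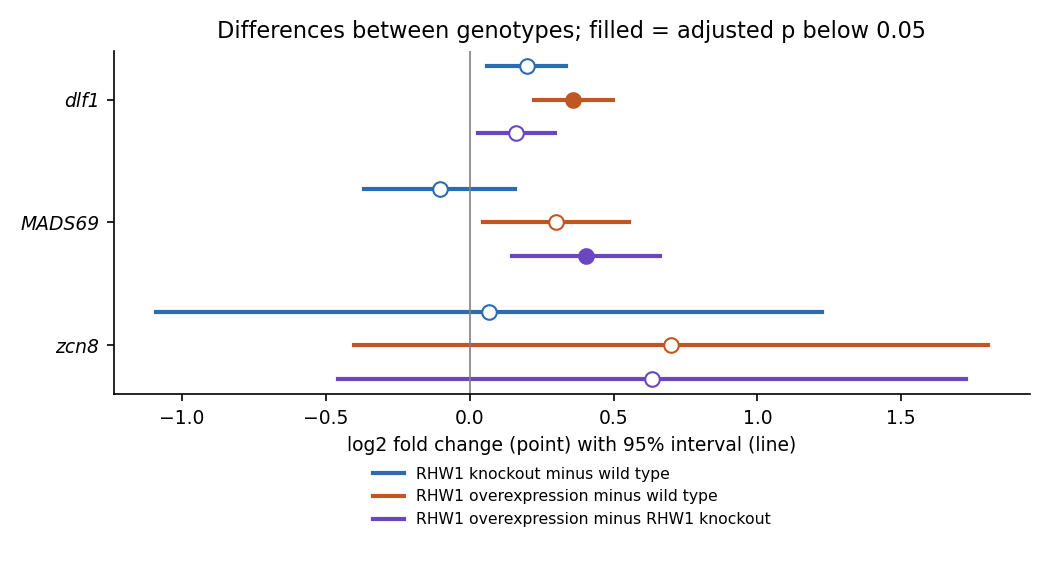
Log2 fold change (x axis) of dlf1, MADS69 and zcn8 (y axis) in the 3 comparisons, coloured by comparison, each with its 95% interval from the edgeR fit. Filled points passed at an adjusted p below 0.05: dlf1 in overexpression against wild type (0.36) and MADS69 in overexpression against knockout (0.40); the zcn8 intervals all span 0.

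zcn8, the florigen gene itself, gave few reads in the ear. The wild-type libraries held 12 and 17, the knockout libraries 24 and 7, and the overexpression libraries 23 and 23, which makes 106 in all. The levels were 0.518 and 0.75 CPM for wild type, 0.999 and 0.314 CPM for the knockout, and 1.101 and 0.967 CPM for overexpression. Both overexpression libraries were above both wild-type libraries, but knockout replicate 1 lay among the overexpression values and knockout replicate 2 was the lowest of all.

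The zcn8 knockout replicates differed by a factor of 3.18, and their exact 95% Poisson intervals, 0.64 to 1.49 CPM and 0.126 to 0.647 CPM, barely met. The overexpression level was 1.62-fold that of wild type, with a 95% interval of 0.756 to 3.49 (edgeR adjusted p = 0.364). Overexpression was 1.55-fold the knockout (95% interval 0.727 to 3.31; edgeR adjusted p = 0.424). The log2 value of that difference, 0.63, became 1.70 without knockout replicate 1 (edgeR adjusted p = 0.131) and 0.046 without knockout replicate 2 (edgeR adjusted p = 0.97). The knockout was 1.05-fold wild type (95% interval 0.469 to 2.34; edgeR adjusted p = 0.969). A 2-fold rise of zcn8 lies inside the 95% interval of each of the 3 comparisons. A 2-fold fall lies inside only that of the knockout against wild type. The knockout difference also changed sign in 3 of the 12 alternatives that gave an adjusted p, from a log2 value of 0.07 to -1.001 without knockout replicate 1, -0.18 without wild type replicate 1 and -0.11 in limma-voom.

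Rap2.7, the AP2-type delayer of flowering that MADS69 lowers, gave very few reads: the wild-type libraries held 5 and 7, the knockout libraries 6 and 5, and the overexpression libraries 2 and 7. No library exceeded 7 reads, the genotypes overlapped, and the gene did not pass the low-count filter. Summed over both libraries, the reads were 12 in wild type (exact 95% Poisson interval 6.2 to 21), 11 in the knockout (5.49 to 19.7) and 9 in overexpression (4.12 to 17.1). As levels these sums were 0.262, 0.237 and 0.201 CPM. Without the filter, edgeR gave a log2 fold change of -0.39 in overexpression against wild type, with a 95% interval of -2.56 to 1.78 and an adjusted p of 0.877, which leaves even large changes in either direction inside the interval.

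CCT10, the long-day repressor, had 0 reads in each of the 6 libraries. A count of 0 allows up to 3 reads in a library, taken as its one-sided 95% limit, or 0.125 to 0.144 CPM. Intervals and floors cover counting error only. In bulk tissue, fewer cells that express a gene and less RNA per cell cannot be told apart, for this gene and for the others.

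**Figure D3:**
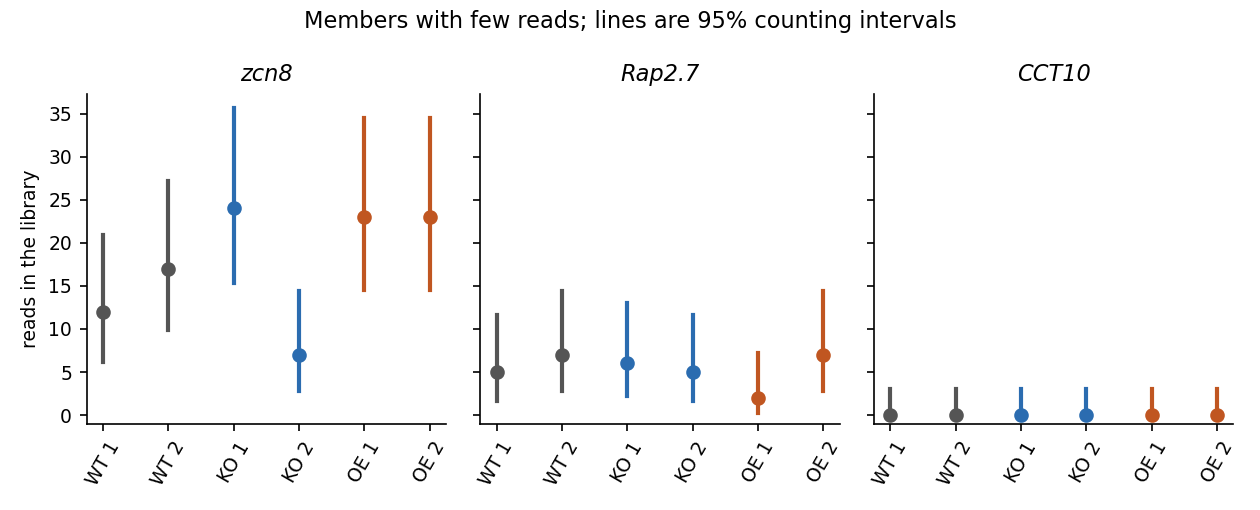
Reads (y axis) of zcn8, Rap2.7 and CCT10 in each library (x axis; WT wild type, KO RHW1 knockout, OE RHW1 overexpression, numbers are replicates), with exact two-sided 95% Poisson intervals as lines, or, for a count of 0, the one-sided limit of 3 reads. zcn8 has 7 to 24 reads, Rap2.7 has 2 to 7 and CCT10 has 0 throughout.

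By comparison, the knockout against wild type called 0 of the 3 tested members with edgeR, beside 8.52% of all tested genes in either direction and 4.04% as higher. That share rests on each library: 1954 calls became 909 and 1196 without wild type replicate 1 or 2, 1052 and 1267 without knockout replicate 1 or 2, and 986 in DESeq2. DESeq2 called 0 of dlf1 and MADS69 and gave zcn8 no adjusted p, and limma-voom called 0 of 3. Of the members, 1 (dlf1) had an unadjusted p under the threshold of 0.05 in edgeR, as did 21.3% of all tested genes. The median log2 fold change of the 3 members was 0.07 there, against 0.00093 over all tested genes. In overexpression against wild type it was 0.36 against -0.005, and 3 of 3 members had groups that did not overlap, beside 63.2% of all tested genes. In overexpression against knockout it was 0.40 against -0.0032, with 2 of 3 members not overlapping, beside 61.1% of all tested genes. Between knockout and wild type, 1 of 3 did not overlap, beside 49.2%. TMM scaling holds the signed median over all tested genes near 0, so it does not measure a typical change. Without sign, the median log2 fold change was 0.105 in the members against 0.112 over all tested genes for knockout against wild type. It was 0.36 against 0.174 for overexpression against wild type, and 0.404 against 0.165 for overexpression against knockout. Both calls were rises. Counts of 3 members against such shares do not set the group apart from other genes.

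The 2 called differences were compared across settings. Of the 13 alternatives, 2 left out a library of the third genotype and so hardly bear on a comparison. dlf1 in overexpression against wild type passed in all of the other 11, with log2 values of 0.31 to 0.42 and adjusted p up to 0.00597. MADS69 between the lines kept its direction in those 11, with log2 values of 0.33 to 0.49, and passed in 8. Of the 4 that left out a library of its own comparison, 2 lost the call.

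**Figure D4:**
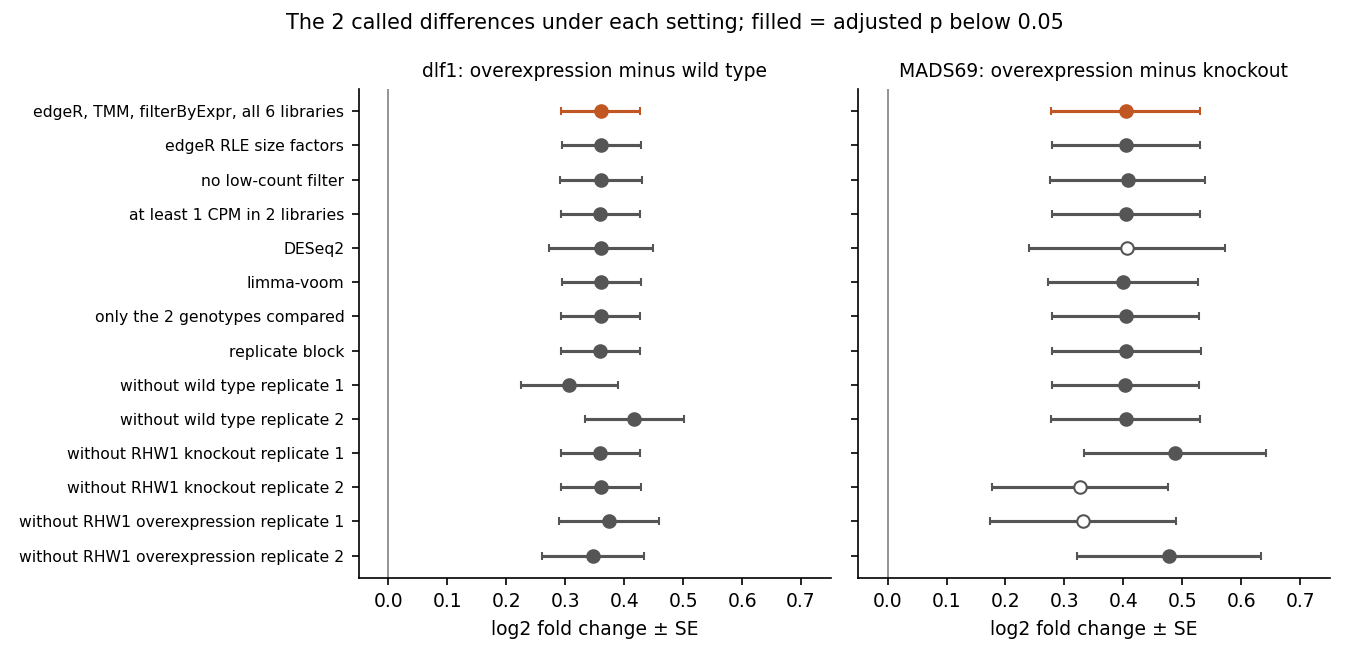
Log2 fold change ± SE (x axis) of dlf1 in overexpression against wild type and of MADS69 in overexpression against knockout, under each setting (y axis; the orange point is the reported value). Filled points passed at an adjusted p below 0.05; dlf1 passed under each setting shown, and MADS69 missed it in DESeq2, without knockout replicate 2 and without overexpression replicate 1.

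The gene whose pattern over the 6 libraries was most like that of dlf1, among 19675 tested genes whose mean log2 CPM reached 1, was Zm00001d053813 (Pearson's r of log2 CPM 0.996). It had 6937 and 7087 reads in the wild-type libraries, 7850 and 7266 in those of the knockout, and 7197 and 8163 in those of overexpression. For MADS69 it was Zm00001d034179 (r = 0.994), with 205 and 235 reads in the wild-type libraries, 231 and 190 in those of the knockout, and 283 and 291 in those of overexpression. The sources used here pair neither identifier with a name. This measure compares the shape of a pattern and not its size: the log2 fold change of Zm00001d053813 in overexpression against wild type was 0.17, and that of Zm00001d034179 was 0.42. Each of these genes was picked as the highest r of 19675 over only 6 libraries of 3 genotypes, so its r is not evidence of a link. At the lower bar of 0.95, 363 of the 19675 genes reached that r with dlf1 and 129 with MADS69.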

How the data were processed

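Per the labels' protocols, ear RNA was prepared for sequencing with a NEBNext Ultra II kit. The authors deposited unnormalized counts of reads for each gene and library. The submitters' processing notes list HISAT2 2.1.0, HTSeq, StringTie, Trimmomatic 0.35 and edgeR 3.32.1, with no role stated. Build, annotation, counting options and use of strand: not given in the sources used here. Hence it is not known whether reads of overlapping, antisense or near-identical genes were told apart. The number of columns not used was 0.

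Genes passing filterByExpr (minimum count 10) were tested with edgeR 4.0.16 (R 4.3.3; TMM, quasi-likelihood F-test, 1 fit of 6 libraries, 3 residual degrees of freedom, 33.2 prior degrees of freedom, Benjamini-Hochberg over all tested genes per comparison, called below 0.05). zcn8 passed the filter through wild type as well as overexpression. Standard errors are the log2 fold change divided by the square root of F, and 95% intervals use the fit's degrees of freedom. The calculation was tested on simulated data, with larger changes than those called here and in genes above the level of zcn8. That test therefore does not cover differences as small as those called, or genes as low as zcn8. Alternatives were RLE factors, 2 other filters, DESeq2 1.42.0, limma-voom (limma 3.58.1), 2-group fits, a replicate block and each library left out. Replicates differed beyond counting noise (chi-square per gene 2.24 to 2.63), so none was merged.

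The members and lists were chosen with earlier results of these data known. All 6 members were to be given, plus, for each called member, the gene with the highest correlation. The pairing of member names with identifiers was taken as given: the RefSeq gene table (Zm-B73-REFERENCE-NAM-5.0) names 3 of the 6 members but holds 0 of the 43789 Zm00001d identifiers. For the same reason 49 other flowering genes and 42 tissue markers listed by name could not be looked up, and coordinates and sequences were not used here.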

Additional observations from a re-analysis of the deposited data

How the results depend on the processing

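Over 13 alternatives, 108 of 114 log2 fold changes of single members kept their direction and side of the threshold, 3 lost a call and 3 changed sign. DESeq2 gave zcn8 no adjusted p in its 3 comparisons, which are not counted. The 108 include values that were uncalled and stayed so, and fits that left out a library of the third genotype. They therefore do not measure how firm the 2 calls are. Without those fits, dlf1 passed in 11 of 11 alternatives and MADS69 in 8 of 11. All 3 sign changes were those of zcn8 in the knockout against wild type, whose log2 value of 0.07 became -0.11 in limma-voom, -0.18 without wild type replicate 1 and -1.001 without knockout replicate 1, and ran from -1.001 to 0.65 with each library left out; knockout replicate 2 had 7 reads of it. The 3 lost calls were those of MADS69 between the modified lines. The number of members called there was 1, against 0 in DESeq2, and 0 to 1 with each library left out. The number called in the knockout stayed at 0 and that in overexpression against wild type at 1 under every alternative. A replicate block gave 0, 1 and 1 members called (knockout and overexpression against wild type, then line against line), as without it. Deviations of same-numbered libraries correlated at -0.0139 to 0.00772 over all tested genes, so no strong shared replicate effect was seen. Whether same-numbered libraries were handled together cannot be told from this. The backdrop moved more: DESeq2 called 986, 4455 and 3946 of all genes where edgeR called 1954, 6698 and 6120, and the knockout count fell to 909 and 1196 when wild type replicate 1 or 2 was left out, and to 1052 and 1267 when knockout replicate 1 or 2 was. Few reads limit zcn8 and Rap2.7, and CCT10 had 0 reads, the cause of which was not tested. In the zcn8 knockout libraries the spread between replicates (CV 73.8%) was above that of counting alone (25.4%).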
